A study of Mus musculus with 5 samples.

Results

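Genes of the Wnt, FGF, Hedgehog, IGF and PDGF pathways, with the Notch, EGF, HGF, VEGF and TGF-beta genes grouped beside them, were followed in forelimb muscle of mouse embryos that lack Noggin. The genes were taken by their symbols (all that begin with Wnt, Fzd, Sfrp, Dkk, Rspo, Fgf, Ptch, Igf, Pdgf and the related stems, without Notch1), and 49 of the 4743 genes in the deposited tables matched. By pathway, 23 belonged to Wnt, 8 to FGF, 3 to Hedgehog, 8 to IGF, 1 to PDGF, 1 to Notch, 4 to EGF, HGF and VEGF and 1 to TGF-beta and activin. RNA sequencing had been done on 3 Noggin-deficient and 2 wild type samples, all of the C57BL/6 strain at stage E15.5, in late embryonic life. Noggin is a secreted protein that holds bone morphogenetic proteins (BMPs) away from their receptors. The labels give no further allele, and do not say how the Noggin gene was altered, whether a sample was 1 embryo or a pool, or which litter or sex it came from. A p-value below is thus set against the spread of these libraries alone, and that spread may be technical only.

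These pathways carry signals between neighbouring cells. Wnt ligands bind Frizzled receptors with the co-receptors Lrp5 and Lrp6. R-spondins bind Lgr receptors and keep Frizzled on the cell surface, while Sfrp proteins and Wif1 bind the ligands and most Dkk proteins block the co-receptors. FGF, IGF, PDGF, EGF, HGF and VEGF ligands act through receptor tyrosine kinases, and Hedgehog ligands act by releasing the block that Patched sets on Smoothened. In the developing limb, ectoderm, cartilage, tendon and connective tissue send several of these ligands to muscle cells, and HGF acting on Met guides muscle precursors into the limb.

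The tables were already narrowed to genes that differ between these same libraries, so a call here describes a size and a direction and is not independent evidence of change. Values are the authors' normalized expression signal, in a unit that is not named, and levels are compared between samples and not between genes. Of the 49 genes, 42 came to 0.5 or more in at least 2 libraries and were tested, and 7 did not. All 42 tested genes passed the test at an adjusted p under 0.05 (limma's moderated test on log2(value + 0.25), Benjamini-Hochberg over 3913 genes), where 98% of all tested genes passed, so the count says nothing particular about these pathways. Of the 42, 14 were higher (37.9% of all tested genes were called higher) and 28 lower (60.1%) in Noggin-deficient samples. The median log2 change was -0.30 for the 42 genes and -0.28 for all tested genes. The Noggin-deficient and wild type libraries did not overlap for any of the 49 genes, as for 98.2% of all listed and 99.3% of all tested genes.

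The scale of the libraries bears on every small fall. Rescaling with median-of-ratios factors, computed from the listed genes, moved the median log2 change of all genes up by 0.25, and upper-quartile scaling moved it by 0.19. All tested genes were called in 70.5% of cases under the first (38% higher, 32.5% lower), 80.3% under the second (38% higher, 42.3% lower) and 72.3% once a trend of the change on transcript length was taken out (35.2% higher, 37.1% lower). The 14 genes that were higher were also called higher under both of these scalings and without the length trend. Both scalings raise every log2 change, so no rise could turn to a fall under them. Among all tested genes, 1484 were called higher on the deposited scale and 1488 under each of these scalings. Of the 3 alternatives, removing the length trend was the only one that could lower a rise. Of the 28 that were lower, 12 were still called lower under median-of-ratios scaling and 17 with the length trend taken out. The share of these calls that were higher was thus 33.3% on the deposited scale and 53.8% under median-of-ratios scaling. Every log2 change between -0.36 and -0.23 lost its call under median-of-ratios scaling. The factors come from genes already selected for a difference, most of them lower, and bring their median from -0.28 to -0.03. A fall near that median is thus brought near zero by the scaling itself. The loss of such a call does not show that the gene did not fall. On the deposited scale the 42 changes ran from -1.12 to 0.82, and 1 of them, Dkkl1, was over 2-fold, as were 10.9% of all tested genes. Against a 1.5-fold change 2 genes were called higher (Sfrp1 and Dkk2) and 2 lower (Dkkl1 and Igfbp6), where 14.5% of all tested genes were called, 4.22% higher and 10.3% lower.

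**Figure D1:**
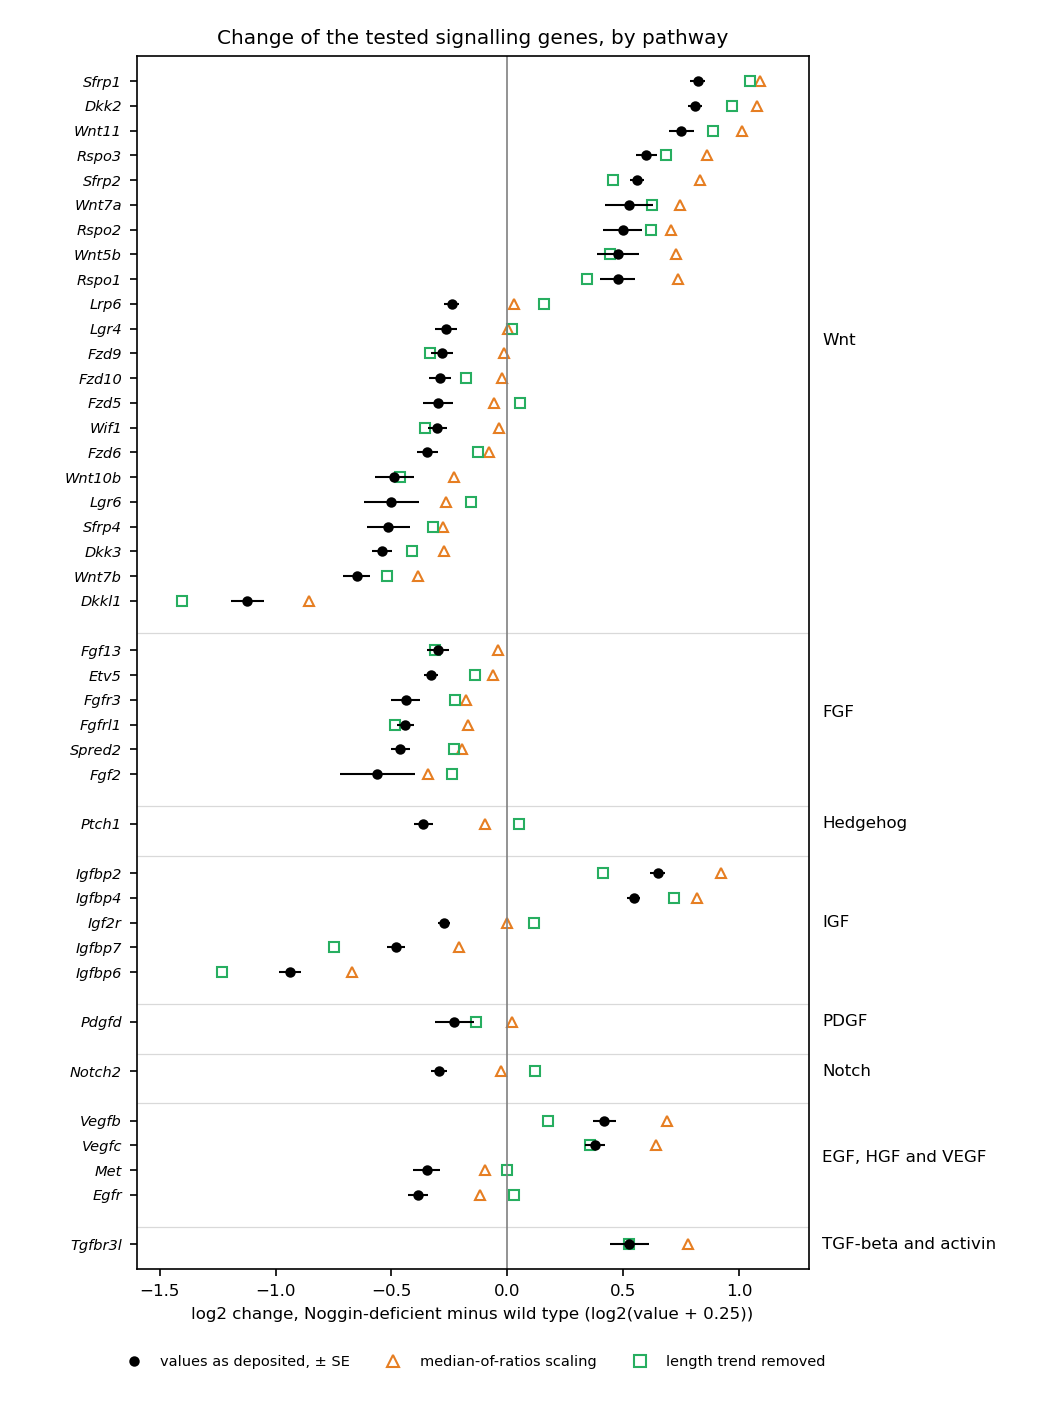
Log2 change (Noggin-deficient minus wild type) of 41 tested genes, grouped by pathway. Black points are the values as deposited with the standard error, triangles the values under median-of-ratios scaling and squares those with the length trend taken out. The 14 rises stay right of zero on all scales, which median-of-ratios scaling could not alter because it raises every change. Many falls, such as those of Lrp6, Lgr4 and Notch2, meet or cross zero on another scale.

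The promoter sequences of 4 genes are shown: 2 Wnt ligands and an R-spondin that rose, and the Hedgehog receptor gene Ptch1, which was lower. Each window shown holds a motif, while most windows of these pathways hold none. Each is the run of 250 bases before an annotated start of transcription, from RefSeq on build GRCm38.p6, written along the strand of the gene. Capitals mark CTTTGAT (a core of the TCF and LEF site, the factors of the Wnt pathway) or GGCGCC (a GC-rich core bound by BMP SMADs), on either strand. Neither motif overlaps the other.
Wnt11 (chr7:98834862-98835111, plus strand): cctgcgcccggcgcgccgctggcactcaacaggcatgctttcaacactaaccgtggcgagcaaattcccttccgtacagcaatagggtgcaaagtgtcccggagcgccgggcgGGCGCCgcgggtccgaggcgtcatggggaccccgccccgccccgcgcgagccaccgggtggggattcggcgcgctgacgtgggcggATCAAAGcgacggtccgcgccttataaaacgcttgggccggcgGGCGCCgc
Wnt5b (chr6:119449387-119449636, minus strand): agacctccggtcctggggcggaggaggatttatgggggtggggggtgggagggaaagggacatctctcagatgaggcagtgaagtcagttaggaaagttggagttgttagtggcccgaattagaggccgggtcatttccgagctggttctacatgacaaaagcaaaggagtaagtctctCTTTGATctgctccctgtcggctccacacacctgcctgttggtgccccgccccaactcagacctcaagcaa
Rspo1 (chr4:124986180-124986429, plus strand): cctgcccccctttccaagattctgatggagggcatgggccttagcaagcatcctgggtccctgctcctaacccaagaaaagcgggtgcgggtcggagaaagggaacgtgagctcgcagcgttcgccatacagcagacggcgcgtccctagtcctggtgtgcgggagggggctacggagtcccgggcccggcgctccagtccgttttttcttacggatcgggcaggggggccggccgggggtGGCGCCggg
Ptch1 (chr13:63565736-63565985, minus strand): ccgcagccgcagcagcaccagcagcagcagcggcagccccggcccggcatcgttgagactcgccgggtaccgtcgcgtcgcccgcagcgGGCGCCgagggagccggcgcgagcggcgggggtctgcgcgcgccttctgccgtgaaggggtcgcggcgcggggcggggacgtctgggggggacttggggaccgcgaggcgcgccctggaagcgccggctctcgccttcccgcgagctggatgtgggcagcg

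Promoter windows were at hand for 39 of the 49 genes, 48 windows in all, since 6 genes had several starts. The TCF and LEF core stood in 2 of the 48 windows, and in 3.21% of all 32851 promoter windows. A count of 2 is too small to set apart from that share. These were windows of 2 of the 39 genes, Wnt11 and Wnt5b, both Wnt ligands that rose. In Wnt11 the core began 51 bases before the start shown and in Wnt5b 71 bases before. The second start of Wnt11 and the other 2 starts of Wnt5b held neither motif. The SMAD core stood in 12 of the 48 windows, from 11 genes, and in 9.59% of all windows. That core is made of G and C alone, and G and C made up 62.4% (Fgf2) to 81.6% (Ptchd1) of the 12 windows. The share over all windows was not matched for this content, so the 2 shares do not show an excess of SMAD sites. Among the 11 genes, Wnt11, Rspo1 and Vegfc were called higher, and Ptchd1 was not tested. The others, Etv5, Fgf2, Fgfr3, Fzd9, Fzd10, Met and Ptch1, were called lower on the deposited scale. The windows of Dkk2, Sfrp2, Igfbp2 and Igfbp4, which rose, held neither core. GACCACCCA, the core of the GLI site of Hedgehog signalling, was in none of the 48, the Ptch1 window included, and in 0.225% of all windows. These matches describe the letters of the windows, and no binding was measured.

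Among the Wnt ligands, 3 rose and 2 fell. Wnt11, a ligand of signalling that does not run through beta-catenin, had values of 8.55, 9.09 and 9.42 in Noggin-deficient samples, against 5.44 and 5.08 in wild type samples. Every Noggin-deficient library was above both wild type ones, and the log2 change was 0.75 (SE 0.054, limma adjusted p = 1.05e-05). Wnt5b, another ligand of that kind, had 3.59, 3.30 and 2.87 in Noggin-deficient samples, against 2.23 and 2.28 in wild type samples (log2 change 0.48). Wnt7a, which the dorsal limb ectoderm makes, had 1.45, 1.42 and 1.29 in Noggin-deficient samples, against 0.99 and 0.79 in wild type samples (log2 change 0.53). For both, the lowest Noggin-deficient library lay above the highest wild type library. Wnt7b, an epithelial ligand, moved the other way, with 6.09, 6.33 and 6.93 in Noggin-deficient samples, against 10.37 and 10.13 in wild type samples. Its log2 change was -0.65 (SE 0.057, limma adjusted p = 2.7e-05), and -0.38 under median-of-ratios scaling. Wnt10b, a ligand of skin and hair follicle placodes that also restrains fat cell formation, was lower as well, at 3.60, 4.32 and 3.56 in Noggin-deficient samples, against 5.55 and 5.35 in wild type samples (log2 change -0.49, and -0.23 under median-of-ratios scaling). Both falls kept their call on each of the other scales.

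Markers of epidermis were lower, as were Wnt7b and Wnt10b but not Wnt7a, the ligand of dorsal limb ectoderm. All 17 listed epidermis markers of 18 on the list fell (median log2 change -1.26), by unequal amounts. The log2 changes ran from -0.49 for Krt14 and -0.61 for Krt5 to -2.89 for Lor and -3.95 for Hrnr. The summed value of the 17 was 1335 to 1380 in Noggin-deficient samples and 3145 to 3172 in wild type samples. No epidermis marker was at 0 in any library. The part of this difference in the values of Wnt7b, Wnt10b and other genes that skin expresses was not tested. In such bulk tissue, fewer cells of a type and less RNA per cell cannot be told apart.

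The R-spondins, which raise the response of cells to Wnt, were higher where they could be tested. All 4 genes of the family were listed, as were 49 (29.3%) of the 167 annotated protein-coding symbols that fit the stems and 18.9% of all annotated protein-coding symbols. Rspo3 had values of 6.94, 6.83 and 7.31 in Noggin-deficient samples, against 4.56 and 4.54 in wild type samples. The log2 change of Rspo3 was 0.60 (SE 0.046, limma adjusted p = 1.4e-05). Rspo1 had 6.35, 7.33 and 6.17 in Noggin-deficient samples, against 4.55 and 4.80 in wild type samples, a log2 change of 0.48. Rspo2 had 1.10, 1.17 and 1.11 in Noggin-deficient samples, against 0.73 and 0.72 in wild type samples, a log2 change of 0.50. These 3 changes, when rescaled by median-of-ratios factors, ran from 0.71 to 0.86, and with the length trend taken out they were 0.34 for Rspo1, 0.62 for Rspo2 and 0.69 for Rspo3. Rspo4 was too low to be tested, at 0.36, 0.35 and 0.22 in Noggin-deficient samples, against 0.18 and 0.15 in wild type samples.

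The tested Wnt receptor genes were lower on the deposited scale, with a median log2 change of -0.29. All tested genes had a median of -0.28 there, and 60.1% of them were called lower. The 4 listed Frizzled genes, the co-receptor gene Lrp6 and the R-spondin receptor genes Lgr4 and Lgr6 were all called lower on the deposited scale, with log2 changes from -0.50 to -0.24, while none of the 7 was called lower under median-of-ratios scaling (-0.26 to 0.03). With the length trend taken out 3 were called lower (Fzd6, Fzd9 and Fzd10) and 1, Lrp6, was called higher. Fzd6, which orients hair follicles in mouse skin, had 6.57, 6.79 and 7.11 in Noggin-deficient samples, against 8.58 and 8.88 in wild type samples. Lrp6, which passes the Wnt signal to beta-catenin, had 11.86, 11.62 and 11.55 in Noggin-deficient samples, against 13.97 and 13.70 in wild type samples. The libraries of the groups stood apart for each, but by a margin that the choice of scale can close. Lgr6, a marker of hair follicle stem cells, had 1.13, 1.39 and 1.34 in Noggin-deficient samples, against 2.16 and 1.70 in wild type samples, with a log2 change of -0.50 (SE 0.12).

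A ratio of genes within a library does not depend on how the libraries are scaled. The geometric mean of Rspo1, Rspo2 and Rspo3 over that of Fzd5, Fzd6, Fzd9 and Fzd10 was 0.630, 0.635 and 0.617 in Noggin-deficient samples, against 0.333 and 0.337 in wild type samples, 1.87 times as high. Over the geometric mean of Lgr4 and Lgr6 it was 1.21, 1.2 and 1.12 in Noggin-deficient samples, against 0.554 and 0.615 in wild type samples, 2.01 times as high. R-spondin transcripts were thus higher relative to those of the listed Frizzled and Lgr genes in each Noggin-deficient library. Only listed genes enter these ratios, such as 4 of the 10 annotated Frizzled genes. These pairs, and those in later ratios, were picked with the values in view, so none was tested. The change of a ratio shows that its parts changed unequally, not which of them moved. A length trend still acts on a ratio, and with that trend taken out the difference in mean log2 change was 0.70 over the Frizzled genes (0.83 as deposited) and 0.62 over the Lgr genes (0.91 as deposited).

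Genes of secreted Wnt antagonists, taken with relatives from the same families, were at both ends of the range. Sfrp1, which binds Wnt ligands, had 22.14, 22.36 and 23.01 in Noggin-deficient samples, against 12.68 and 12.57 in wild type samples. Its change of 0.82 on the log2 scale (SE 0.031, limma adjusted p = 5.3e-07) was the highest among the tested genes of these pathways on the deposited scale. Sfrp2, of the same family, had 53.75, 54.65 and 56.53 in Noggin-deficient samples, against 36.82 and 37.53 in wild type samples (log2 change 0.56). Sfrp4 was lower, at 1.14, 1.39 and 1.29 in Noggin-deficient samples, against 1.85 and 1.99 in wild type samples (log2 change -0.51, and -0.28 under median-of-ratios scaling). Within a library, Sfrp1 and Sfrp2 over Sfrp4 came to 30.3, 25.1 and 28.0 in Noggin-deficient samples, against 11.7 and 10.9 in wild type samples.

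The Dkk genes parted in the same way. Dkk2, which binds Lrp6 and can block or weakly stimulate it, had 30.04, 29.12 and 28.91 in Noggin-deficient samples, against 16.53 and 16.75 in wild type samples, so that the log2 change was 0.81 (SE 0.030, limma adjusted p = 4.9e-07). The spread within each group was small beside the gap between them. Dkk3, a divergent member that does not act as a Wnt co-receptor blocker, had 6.63, 6.64 and 7.02 in Noggin-deficient samples, against 10.14 and 9.74 in wild type samples (log2 change -0.54, and -0.27 under median-of-ratios scaling). Dkkl1, a Dkk-like gene known from the testis, had 7.15, 7.64 and 8.61 in Noggin-deficient samples, against 17.24 and 17.21 in wild type samples. Its change of -1.12 on the log2 scale (SE 0.070, limma adjusted p = 5.5e-06) was the lowest of the 42, and it was -0.85 under median-of-ratios scaling and -1.40 with the length trend taken out. Wif1, which traps Wnt ligands, had 14.30, 13.45 and 13.75 in Noggin-deficient samples, against 17.64 and 16.60 in wild type samples. That fall of -0.30 came to -0.03 (adjusted p = 0.50, limma) under median-of-ratios scaling. It kept its call under upper-quartile scaling (-0.11, limma adjusted p = 0.040) and with the length trend taken out (-0.35, limma adjusted p = 6.0e-05).

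**Figure D2:**
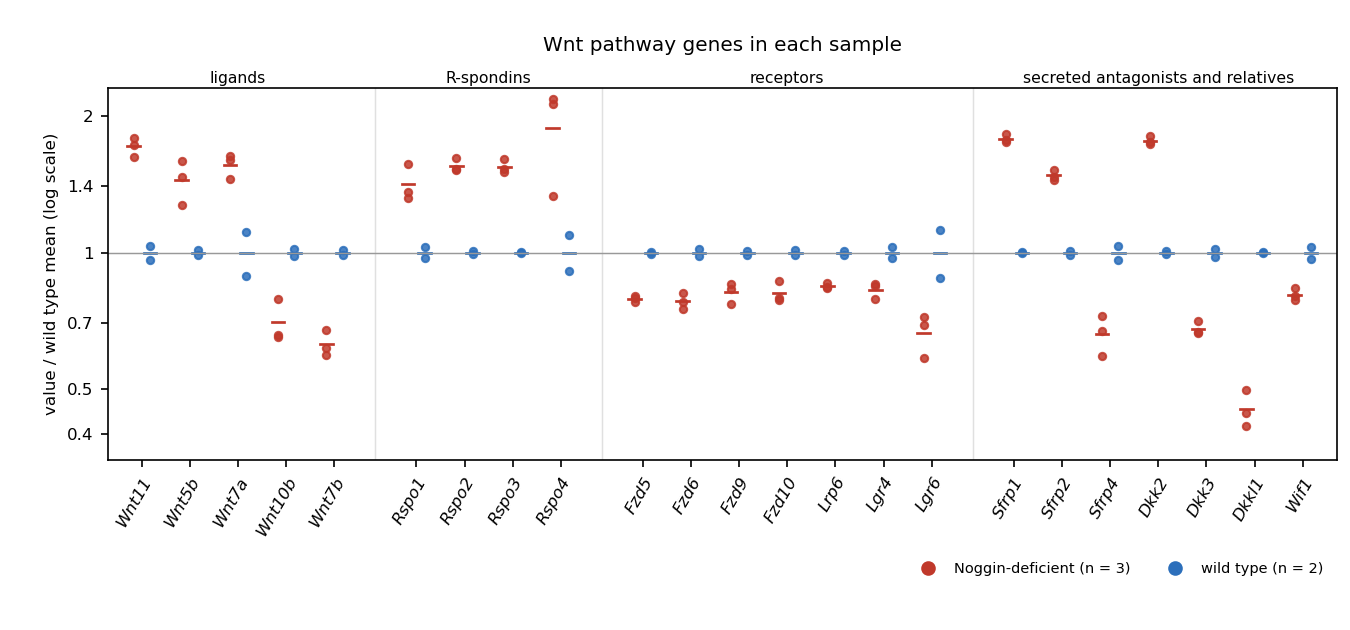
Values of the 23 listed Wnt pathway genes in each sample, divided by the wild type mean of the gene, on a log scale. Red points are the 3 Noggin-deficient and blue points the 2 wild type samples, bars are group means, and Rspo4 was below the minimum for testing. R-spondins, Sfrp1, Sfrp2, Dkk2 and 3 ligands lie above 1 in Noggin-deficient samples, while the receptors lie between the R-spondins and the strongest falls, at 0.67 to 0.84 on average.

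Markers of the distal limb and of bone, where several of these Wnt regulators are also expressed, were higher in the same libraries. The 9 distal limb markers rose (median log2 change 1.27), with a summed value of 27.6 to 27.8 in Noggin-deficient samples and 11.3 to 11.4 in wild type samples. The 5 listed bone markers of 12 rose (median 0.59), with a sum of 112 to 116 in Noggin-deficient samples and 79.2 to 83.2 in wild type samples. Fibroblast and tendon markers went the other way, and the 5 listed of 13 fell (median -0.41). Under median-of-ratios scaling their median was -0.14, and 4 were still called lower. Their sum was 5070 to 5080 in Noggin-deficient samples and 6639 to 6757 in wild type samples. None of these markers was at 0 in any library, and their part in the rises of the R-spondin, Sfrp and Dkk2 genes was not tested. Of the 21 skeletal muscle markers, which check the labelled tissue, 18 were listed and none of these was at 0 in any library. Of the 17 tested, 16 fell and 1 rose (median -0.55), and 14 were still called lower under median-of-ratios scaling or with the length trend taken out. Their summed value was 4908 to 5143 in Noggin-deficient samples and 7089 to 7214 in wild type samples.

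Other genes of the Wnt pathway, from a list of 53, showed the same mixture. Of 17 tested, 6 rose and 11 fell (median log2 change -0.27), while under median-of-ratios scaling 4 were called lower (median -0.01). All tested genes were called higher in 37.9% and lower in 60.1% of cases (median -0.28), and lower in 32.5% under median-of-ratios scaling. Tle2, a co-repressor that binds TCF factors, had 10.74, 10.56 and 10.48 in Noggin-deficient samples, against 6.27 and 6.02 in wild type samples (log2 change 0.76). Notum, an enzyme that inactivates Wnt ligands, had 1.90, 1.98 and 1.91 in Noggin-deficient samples, against 1.3 and 1.10 in wild type samples (log2 change 0.59). Daam1, a formin of the planar polarity branch, fell by 0.66, and by less under median-of-ratios scaling (-0.41) and with the length trend taken out (-0.34). All 3 kept their direction and call under median-of-ratios scaling as well as with the length trend taken out.

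The tested FGF genes were lower. The tables list 8 (19%) of the 42 annotated protein-coding symbols that fit the FGF stems, beside 18.9% of all protein-coding symbols. All 6 tested were called lower on the deposited scale (median -0.44), where 60.1% of all tested genes were. Under median-of-ratios scaling 3 were called lower (median -0.17), beside 32.5% of all tested genes. With the length trend taken out 5 were called lower, beside 37.1%. Fgfrl1, an FGF-binding receptor without a kinase, had 21.65, 20.98 and 22.53 in Noggin-deficient samples, against 29.09 and 30.01 in wild type samples (log2 change -0.44, SE 0.037, limma adjusted p = 2.3e-05). Fgfr3, a receptor that limits the growth of cartilage, had 4.89, 5.24 and 4.63 in Noggin-deficient samples, against 7.0 and 6.51 in wild type samples (log2 change -0.44). Spred2, an inhibitor of the Ras and ERK cascade, had 6.17, 6.45 and 6.11 in Noggin-deficient samples, against 8.64 and 8.73 in wild type samples (log2 change -0.46). These 3 kept their calls on all scales run, at -0.17 to -0.20 under median-of-ratios scaling.

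Etv5, a transcription factor that FGF signalling induces, had 13.76, 13.60 and 13.25 in Noggin-deficient samples, against 17 and 17.14 in wild type samples. Its log2 change was -0.33 on the deposited scale and -0.06 under median-of-ratios scaling, where it was not called (adjusted p = 0.13, limma). Etv5 was still called lower under upper-quartile scaling (-0.13) and with the length trend taken out (-0.14). Fgf2, a ligand, had 0.73, 0.83 and 0.87 in Noggin-deficient samples, against 1.64 and 1.04 in wild type samples. The wild type libraries lay far apart from each other, and without wild type replicate 1 its log2 change of -0.56 came to -0.29 and lost its call (adjusted p = 0.081, limma). Fgf13, which stays in the cell and binds sodium channels, had 4.78, 5.07 and 5.04 in Noggin-deficient samples, against 6.16 and 6.17 in wild type samples. Its log2 change of -0.30 lost its call under median-of-ratios (-0.04) and upper-quartile scaling (-0.11). With the length trend taken out it kept its call (-0.31, limma adjusted p = 0.00042). The hormone genes Fgf21 and Fgf23 were too low to be tested, Fgf21 at 0.15 to 0.20 in Noggin-deficient samples and 0.48 to 0.49 in wild type samples, and Fgf23 at no more than 0.10 in any library.

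From the list of 32 other FGF and ERK pathway genes, the 5 tested were called lower (median -0.33), beside 60.1% of all tested genes. Under median-of-ratios scaling 1 was still called lower (median -0.07), beside 32.5% of all tested genes. That gene was Fgfbp1, a secreted carrier of FGFs made by epithelia, at 18.87, 18.48 and 19.46 in Noggin-deficient samples, against 28.95 and 28.72 in wild type samples (log2 change -0.60). The 17 listed epidermis markers were lower in the same samples, by a larger median of -1.26. Their range was wide, from -3.95 to -0.49, and the change of Fgfbp1 lay within it.

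Ptch1 encodes the Hedgehog receptor that holds Smoothened in check, and the gene is itself switched on by the pathway. It had 7.48, 7.38 and 7.70 in Noggin-deficient samples, against 9.95 and 9.52 in wild type samples. The groups did not overlap, and the log2 change was -0.36 on the deposited scale (SE 0.040, limma adjusted p = 8.9e-05). Under median-of-ratios scaling it came to -0.10 with no call (adjusted p = 0.065, limma), and with the length trend taken out it turned to 0.05. Ptchd1, which carries a patched domain but is not a known Hedgehog receptor, was below the minimum for testing, at 0.38, 0.27 and 0.39 in Noggin-deficient samples, against 0.24 and 0.20 in wild type samples.

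Of the 24 other Hedgehog pathway genes on the list, 6 were tested, of which 5 rose and 1 fell (median 0.36). Among all tested genes 37.9% were called higher and 60.1% lower. Scube3, a secreted protein that helps release Hedgehog ligands, rose by 0.33, at 2.90, 2.68 and 2.78 in Noggin-deficient samples, against 2.08 and 2.25 in wild type samples. The ligand gene Ihh, of growth plate cartilage, was low, at 0.40, 0.50 and 0.61 in Noggin-deficient samples, against 0.22 and 0.21 in wild type samples. The fall was that of Pthlh, which Indian hedgehog drives in cartilage, at -0.46 on the deposited scale and -0.22 with no call under median-of-ratios scaling, but -0.63 with a call once the length trend was taken out. The 5 listed cartilage markers were lower on the deposited scale (median -0.35), with a summed value of 117 to 118 in Noggin-deficient samples and 148 to 150 in wild type samples, and their median change was -0.08 once rescaled by median-of-ratios factors.

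The IGF binding proteins, which carry IGF1 and IGF2 and control how much reaches the receptors, moved in both directions. Igfbp4 had 389.96, 391.36 and 395.05 in Noggin-deficient samples, against 272.12 and 265.17 in wild type samples, so that the log2 change was 0.55 (SE 0.029, limma adjusted p = 2.5e-06). Igfbp2 had 84.44, 89.02 and 84.25 in Noggin-deficient samples, against 54.85 and 54.49 in wild type samples, so that the log2 change was 0.65 (SE 0.032, limma adjusted p = 1.7e-06). In both, the Noggin-deficient libraries lay close together and above the wild type ones, though Igfbp2 came to 0.41 with the length trend taken out. The 5 listed fat markers of 9 rose in the same samples (median 1.94), with a summed value of 194 to 200 in Noggin-deficient samples and 82.8 to 85.7 in wild type samples. The 6 listed blood markers of 14 also rose (median 0.70), with a sum of 221 to 227 in Noggin-deficient samples and 95.1 to 99.4 in wild type samples. None of these markers was at 0 in any library, and their part in the rises of Igfbp2 and Igfbp4 was not tested. Igfbp6, which prefers IGF2, had 8.54, 9.34 and 8.64 in Noggin-deficient samples, against 16.82 and 17.47 in wild type samples. Its change of -0.94 on the log2 scale (SE 0.047, limma adjusted p = 1.8e-06) was -0.67 under median-of-ratios scaling and -1.23 with the length trend taken out. Igfbp7, a low-affinity relative found in vessels and matrix, had 24.26, 24.25 and 25.71 in Noggin-deficient samples, against 35.42 and 33.80 in wild type samples (log2 change -0.48, and -0.21 under median-of-ratios scaling). These 4 genes kept their direction and their call on every scale run.

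Igfbp4 over Igfbp6 within a library was 45.7, 41.9 and 45.7 in Noggin-deficient samples, against 16.2 and 15.2 in wild type samples, and thus 2.83 times as high. Igf2r, the receptor that takes up IGF2 for breakdown, had 67.58, 65.79 and 66.93 in Noggin-deficient samples, against 81.00 and 80.57 in wild type samples. Its log2 change was -0.27 on the deposited scale and -0.0019 under median-of-ratios scaling, and with the length trend taken out it turned to 0.12 with a call (adjusted p = 0.0027, limma). Its direction thus rests on the scale.

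Igfbp1, a binding protein that fetal liver secretes in quantity, had low values of 0.40, 0.44 and 0.41 in Noggin-deficient samples, against 0.02 and 0.03 in wild type samples. It missed the minimum for testing. The 15 listed liver markers had a summed value of 127 to 128 in Noggin-deficient samples and 8.92 to 9.10 in wild type samples, 3 of them being at 0 in both wild type libraries, and the part of liver RNA in the Igfbp1 values was not tested. Igfbpl1, a relative of the binding proteins, was listed at 0.10, 0.14 and 0.13 in Noggin-deficient samples, and at 0.01 and 0 in wild type samples. Igfn1, a muscle protein that shares only the letters of its name with this pathway, was at 0.17 to 0.19 in Noggin-deficient samples and 0.06 to 0.09 in wild type samples.

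From the list of 34 other IGF and insulin pathway genes, 10 were tested, of which 9 were called lower and 1 higher (median -0.33). Under median-of-ratios scaling 3 were called lower (median -0.07). Among all tested genes 60.1% were called lower and 37.9% higher (median -0.28), and 32.5% were called lower under median-of-ratios scaling. Irs4, an adaptor of the insulin and IGF receptors, had 3.06, 3.11 and 3.14 in Noggin-deficient samples, against 0.34 and 0.37 in wild type samples. That log2 change of 2.47 was beyond that of any of the 42 genes of the pathways, and was 2.66 under median-of-ratios scaling and 2.81 with the length trend taken out. Pappa2, a protease that frees IGF by cutting binding proteins, went the other way, at 3.30, 3.21 and 3.47 in Noggin-deficient samples, against 6.97 and 6.95 in wild type samples (log2 change -1.01, and -0.75 under median-of-ratios scaling). Foxo3, a transcription factor that IGF signalling keeps out of the nucleus, fell by 0.61, and under median-of-ratios scaling the change was -0.35, and with the length trend taken out -0.26.

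Single genes stood for PDGF, Notch and TGF-beta. Pdgfd, a ligand of PDGF receptors, had 2.92, 2.48 and 2.62 in Noggin-deficient samples, against 3.37 and 2.98 in wild type samples. The groups were nearly in touch, and its log2 change of -0.23 (adjusted p = 0.031, limma) lost its call without Noggin-deficient replicate 2 (-0.18) or 3 (-0.22), without wild type replicate 1 (-0.15) and under each other scale, turning to 0.02 under median-of-ratios scaling. None of the 10 other PDGF pathway genes on the list was listed in the tables. Notch2, a receptor, had 14.10, 14.53 and 14.21 in Noggin-deficient samples, against 17.28 and 17.86 in wild type samples, a log2 change of -0.29. Rescaling by median-of-ratios brought it to -0.03, and it turned to 0.12 with the length trend taken out. Of 12 tested genes from the list of 38 others of the Notch pathway 7 rose and 5 were lower (1 of the 5 still called lower under median-of-ratios scaling). Among them Hey2, an effector gene, rose by 0.50 and Dtx1, a ubiquitin ligase, by 0.42. Tgfbr3l, a gene related to the TGF-beta co-receptor betaglycan, had 3.71, 4.16 and 4.27 in Noggin-deficient samples, against 2.95 and 2.52 in wild type samples. Its rise of 0.53 (SE 0.085, limma adjusted p = 0.00062) was called on each scale. Of 9 tested genes from the list of 32 others of the TGF-beta and activin pathway, 5 rose and 4 fell (3 still called lower under median-of-ratios scaling). Inha, which encodes the inhibin alpha chain, rose by 0.58, or by 0.38 with the length trend taken out. Beside the Notch and TGF-beta lists, all tested genes were called higher in 37.9% and lower in 60.1% of cases, and lower in 32.5% under median-of-ratios scaling.

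Of the 4 annotated Vegf genes the tables list 2, Vegfb and Vegfc, and both rose, while the receptor genes Egfr and Met were lower on the deposited scale. Vegfb, a ligand of Flt1, had 35.87, 37.25 and 36.86 in Noggin-deficient samples, against 29.04 and 25.80 in wild type samples (log2 change 0.42, SE 0.049, limma adjusted p = 0.00012). Vegfc, the main ligand of lymphatic growth, had 9.06, 8.48 and 9.05 in Noggin-deficient samples, against 6.68 and 6.83 in wild type samples (log2 change 0.38, SE 0.044, limma adjusted p = 0.00011). All Noggin-deficient libraries were above the wild type ones for both genes, and both were called higher on every scale run. With the length trend taken out, Vegfb came to 0.17 (adjusted p = 0.0087, limma) and Vegfc to 0.36. The 5 listed endothelial markers of 16 rose in the same samples (median 0.49), with a summed value of 160 to 165 in Noggin-deficient samples and 110 to 113 in wild type samples, and their part in these rises was not tested.

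Egfr, the receptor of EGF, had 6.52, 6.88 and 6.52 in Noggin-deficient samples, against 8.57 and 8.91 in wild type samples (log2 change -0.38). Met, the HGF receptor of migrating muscle precursors, had 2.90, 2.72 and 2.83 in Noggin-deficient samples, against 3.53 and 3.78 in wild type samples (log2 change -0.35). Under median-of-ratios scaling Egfr was at -0.12 (adjusted p = 0.041) and Met at -0.09 (adjusted p = 0.20, limma), and with the length trend taken out they turned to 0.028 and 0.00067, with no call. Vegfb and Vegfc over Egfr and Met, as geometric means within a library, came to 4.15, 4.11 and 4.25 in Noggin-deficient samples, against 2.53 and 2.29 in wild type samples. Egfr and Met have the longer transcripts (10208 and 6809 bases, against 1281 for Vegfb and 2449 for Vegfc), and with the length trend taken out the difference in mean log2 change was 0.25, against 0.76 as deposited.

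**Figure D3:**
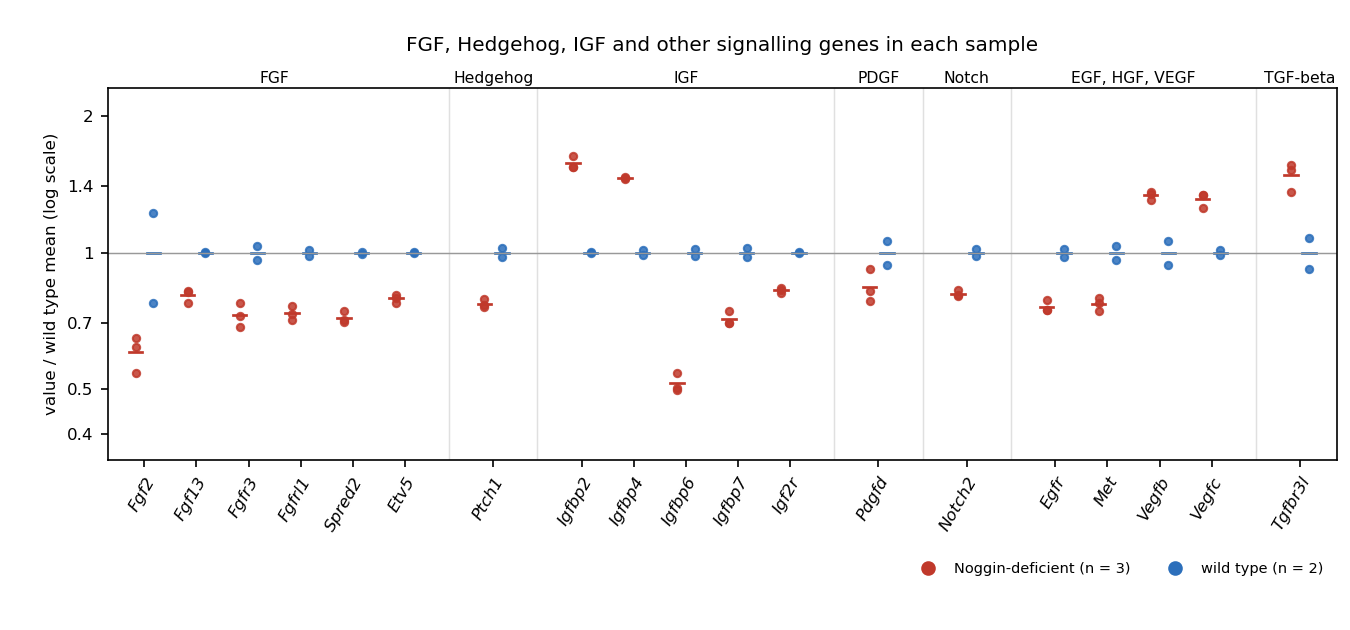
Values of 19 tested genes outside the Wnt pathway in each sample, divided by the wild type mean of the gene, on a log scale. Red points are the 3 Noggin-deficient and blue points the 2 wild type samples, and bars are group means. Igfbp2, Igfbp4, Vegfb, Vegfc and Tgfbr3l lie above 1 in Noggin-deficient samples and Igfbp6 is near 0.5, while the wild type points of Fgf2 are wide apart.

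The genes were also counted by the place of their protein, beside 37.9% higher and 60.1% lower among all tested genes. Of the 16 tested genes for receptors and other membrane proteins, 15 were called lower and 1, Tgfbr3l, higher (median -0.32), while of the 23 tested genes for secreted proteins 13 were higher and 10 lower (median 0.42). The 3 tested genes for intracellular proteins were lower (median -0.33). The difference between these classes was not tested. Transcript length also differed, with a median longest transcript of 5868 bases for the membrane proteins and 3085 for the secreted ones. Over all tested genes, 67.1% in the shortest eighth and 6.42% in the longest eighth were higher in Noggin-deficient samples. With the length trend taken out, 6 of the 16 membrane genes were called lower and 4 higher (median 0.01), against 8 lower and 13 higher of the 23 secreted ones (median 0.34). Under median-of-ratios scaling 4 membrane genes were called lower and 1 higher. There 13 secreted genes were called higher and 7 lower.

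**Figure D4:**
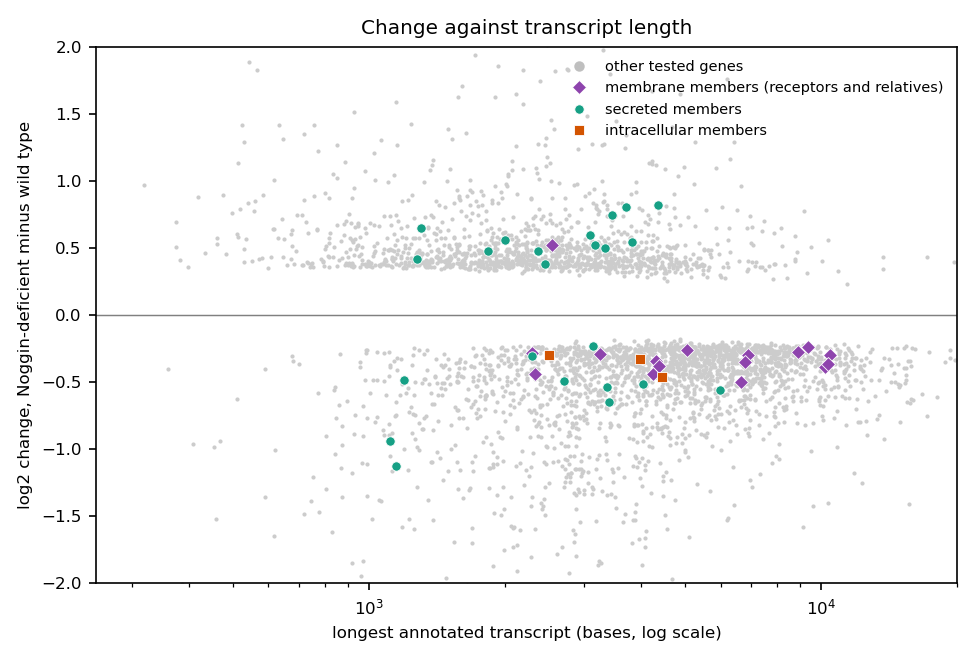
Log2 change (Noggin-deficient minus wild type) against the longest annotated transcript of each gene, in bases on a log scale, with the genes of these pathways coloured by the place of their protein and other tested genes in grey (115 of 3737 genes lie outside the axes). Membrane proteins sit at longer transcripts and just below zero, where long genes of the whole table also lie, while secreted proteins lie on both sides. The tables hold almost no gene near zero.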

How the data were processed

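RNA was purified with a Qiagen micro kit and made into stranded mRNA libraries for Illumina sequencing, per the labels' protocols. STAR 2.4.2a, an unversioned DESeq2 and build mm9 are named, with no role, in the submitters' processing notes. What the authors deposited is an expression signal, never below 0, normalized in a unit they do not name. The sources used here do not give whether strand was used in counting, and Fgf2, Igfbp7, Pdgfd and Wnt5b overlap a protein-coding gene on the other strand, as Tgfbr3l overlaps a gene on its own strand, so their values are uncertain. The listed values summed to 92210 to 93695 in Noggin-deficient and 100792 to 102783 in wild type libraries. The depth is unknown, so no counting interval was given.

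The whole table was fitted with limma 3.58.1 in R 4.3.3 (with an intensity trend, log2(value + 0.25), no covariate). Testing took the genes at 0.5 or above in 2 or more libraries, and called an adjusted p under 0.05. Alternatives were other pseudocounts, filters and scalings, the length trend, a 1.5-fold threshold, no intensity trend, a replicate block and leaving out each library. A fold change on this scale understates the change of low genes. The script was tested on simulated data. Lengths are those of the longest GENCODE M21 transcript, found for 95.5% of tested genes. The length trend was a loess fit of the log2 change, which also recentres it near zero. The genes and lists were chosen with earlier results of these data known. In each pathway, full values go to the 5 genes of largest absolute change and the 2 of highest mean among those with a mean of at least 1, and other genes given in full were chosen after their values were seen. Promoters were matched by symbol to RefSeq windows on GRCm38.p6, and no coordinates of the files were used. Of the 49 genes, 1 is counted in the totals but not reported here by itself.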

Additional observations from a re-analysis of the deposited data

How the results depend on the processing

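Other pseudocounts, a stricter filter and a fit with no intensity trend changed no count in the pathways by over 1.5 times. With no filter, 5 IGF genes and 1 Hedgehog gene were called higher, because low genes were then tested. Under median-of-ratios scaling, 12 genes were called lower (5 Wnt, 3 FGF, 1 Hedgehog, 0 PDGF, 0 Notch, 1 among EGF, HGF and VEGF), and Lgr4, Lrp6 and Pdgfd turned to 0.0026, 0.028 and 0.022. Under upper-quartile scaling 8 Wnt genes and 0 PDGF genes were lower. With the length trend taken out, 17 genes were lower (1 Hedgehog, 0 PDGF, 0 Notch, 0 among EGF, HGF and VEGF) and 1 Notch gene higher. Egfr, Fzd5, Igf2r, Lgr4, Lrp6, Met, Notch2 and Ptch1 then turned to 0.028, 0.053, 0.12, 0.018, 0.16, 0.00067, 0.12 and 0.052. The cause was not tested.

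Against a 1.5-fold change, 2 genes were higher (2 Wnt, and 0 each of IGF, of EGF, HGF and VEGF, and of TGF-beta) and 2 lower (1 Wnt and 1 IGF, and 0 in the other pathways). Leaving out 1 library at a time, the PDGF count ranged from 0 to 1. Only the calls of Pdgfd and Fgf2 were lost in those fits. With the replicate number as a replicate block over 4 libraries, 14 genes were higher and 28 lower, as without it. The numbers pair no samples by design, and same-numbered libraries deviated from their group means with r = -0.13 and -0.062. With depth unknown, values under about 1 carry an error that could not be given.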

Other observations

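Of the listed ligand genes of the EGF family, 1 was high enough to be tested. Tgfa, a ligand of Egfr made by epithelia, had 0.51, 0.54 and 0.54 in Noggin-deficient samples, against 2.05 and 1.83 in wild type samples, a log2 change of -1.49 (limma) that came to -1.27 under median-of-ratios scaling, or -1.25 with the length trend taken out. Egf, Btc, Ereg and Nrg4, further ligands of this family, were below the minimum for testing, so no direction is given for the family. Egf had 0.33, 0.27 and 0.28 in Noggin-deficient samples, against 0.47 and 0.49 in wild type samples, while Ereg had 0.05, 0.12 and 0.07 in Noggin-deficient samples, against 0.18 and 0.33 in wild type samples. Btc had 0.18, 0.33 and 0.30 in Noggin-deficient samples, against 0.40 and 0.47 in wild type samples. Nrg4 had 0.30, 0.36 and 0.25 in Noggin-deficient samples, against 0.37 and 0.47 in wild type samples, with the nearest libraries almost level. Libraries of the groups also did not overlap for 98.2% of all listed genes. Cbl, a ubiquitin ligase that takes activated Egfr and Met out of use, fell by 0.82 (-0.39 with the length trend taken out), and Spint1, an epithelial inhibitor of the proteases that activate HGF, fell by 0.78 (-0.52 under median-of-ratios scaling). Of the 8 tested genes on the list of others of the EGF, HGF and VEGF pathways, 7 fell, where 60.1% of all tested genes were called lower. Angpt2, an angiopoietin of remodelling vessels, rose by 0.51. The epidermis markers were lower and the endothelial markers higher in the same libraries, and their part in these values was not tested.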
